A study of Drosophila melanogaster with 3 samples.

Results

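The heat shock and chaperone genes were examined as possible binding sites of HLH54F, a basic helix-loop-helix (bHLH) transcription factor known for its role in the precursors of the long muscles around the fly gut. The set holds 10 of the 13945 protein-coding genes of the annotation and was chosen by name: Hsp22, Hsp23, Hsp26, Hsp27, Hsp83, Hsf, Hsc70-3, Hsc70-4, Hsc70-5 and Hsp60A. A peak was assigned to a gene when its summit lay in the gene or within 1 kb of one of its transcription start sites (TSS). Binding was profiled by ChIP-seq in Drosophila melanogaster embryos of 0 to 24 h, with 3 biological replicates in 1 group. The embryos came from a transgenic line, HLH54F-GFP, that stably expresses HLH54F with GFP at its C terminus, and males and females were pooled. The labels differ on the antibody, with GFP in the descriptions and HLH54F in the antibody field. No heat treatment is named in the labels. Chromatin of whole embryos pools all tissues and stages of this period, so binding in any single tissue cannot be told apart, and peaks give no transcript levels by which the source could be checked.

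Chaperones bind unfolded proteins and help them to fold, hold them in solution or pass them on for degradation. The small heat shock proteins and part of the Hsp70 family are made in bulk after heat, when the heat shock factor Hsf binds heat shock elements, arrays of inverted nGAAn repeats, in their promoters. In the fly these promoters are also known for the GAGA factor and for a polymerase that pauses before the heat shock. The cognate Hsc70 proteins and the mitochondrial Hsp60 are made without stress in most cells. Here Hsp22, Hsp23, Hsp26 and Hsp27 were taken as stress-induced. Hsf, Hsc70-3, Hsc70-4, Hsc70-5 and Hsp60A were taken as constitutive. Hsp83, which is made without stress and raised by heat, was counted in neither class.

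The authors' optimal list held 4246 dm6 peaks, which were the 4246 of highest signal among the 23689 pooled peaks. The authors' signal is a value for each peak against the control, on a scale not given in the sources used here. Signals ran from 92.74 to 3344 in the optimal list, with a median of 153.7, and had a median of 42.40 in the pooled list. The replicate lists held 30000, 30000 and 24914 peaks, and a top peak is here one of the 4246 of highest signal in a replicate. The pooled and optimal lists were made from the same 3 replicates, so ranks in the replicates are not independent of them. The depth of the libraries is unknown, since no read totals entered this work. The gene of the tagged factor, HLH54F, had 3 pooled peaks of signal 62.95 at most and no optimal peak.

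Optimal peaks lay at 6 of the 10 genes, where 28.1% of all protein-coding genes had one. The 6 genes were Hsp26 and Hsp27 among the stress-induced genes, Hsc70-4, Hsc70-5 and Hsp60A among the constitutive genes, and Hsp83. The classes therefore had 2 of 4 stress-induced and 3 of 5 constitutive genes with an optimal peak. With the relaxed pooled list, 9 of the 10 genes had a peak, against 62.7% of protein-coding genes, and the exception was Hsp23. A top peak in all 3 replicates was found at 6 of the 10 genes, the same 6, against 21.4% of protein-coding genes. The genes were chosen with earlier results of these data known, and 10 genes are not replicates, so these counts carry no test.

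In all, 21 pooled peaks lay at the 10 genes, of which 4 lay at stress-induced genes, 14 at constitutive genes and 3 at Hsp83. Among them were 7 optimal peaks, 6 of them with the summit within 500 bp of a TSS, against 60.9% of all optimal peaks. Of the 14 other pooled peaks 6 were that near to a TSS, against 29.8% of the 19443 pooled peaks outside the optimal list. Relative to the nearest TSS of the gene itself, 5 of the 7 optimal summits lay upstream. All 7 summits lay in a top peak of every replicate. Of the 14 weaker summits, 4 lay in some peak of every replicate and 0 in a top peak of every replicate.

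**Figure D1:**
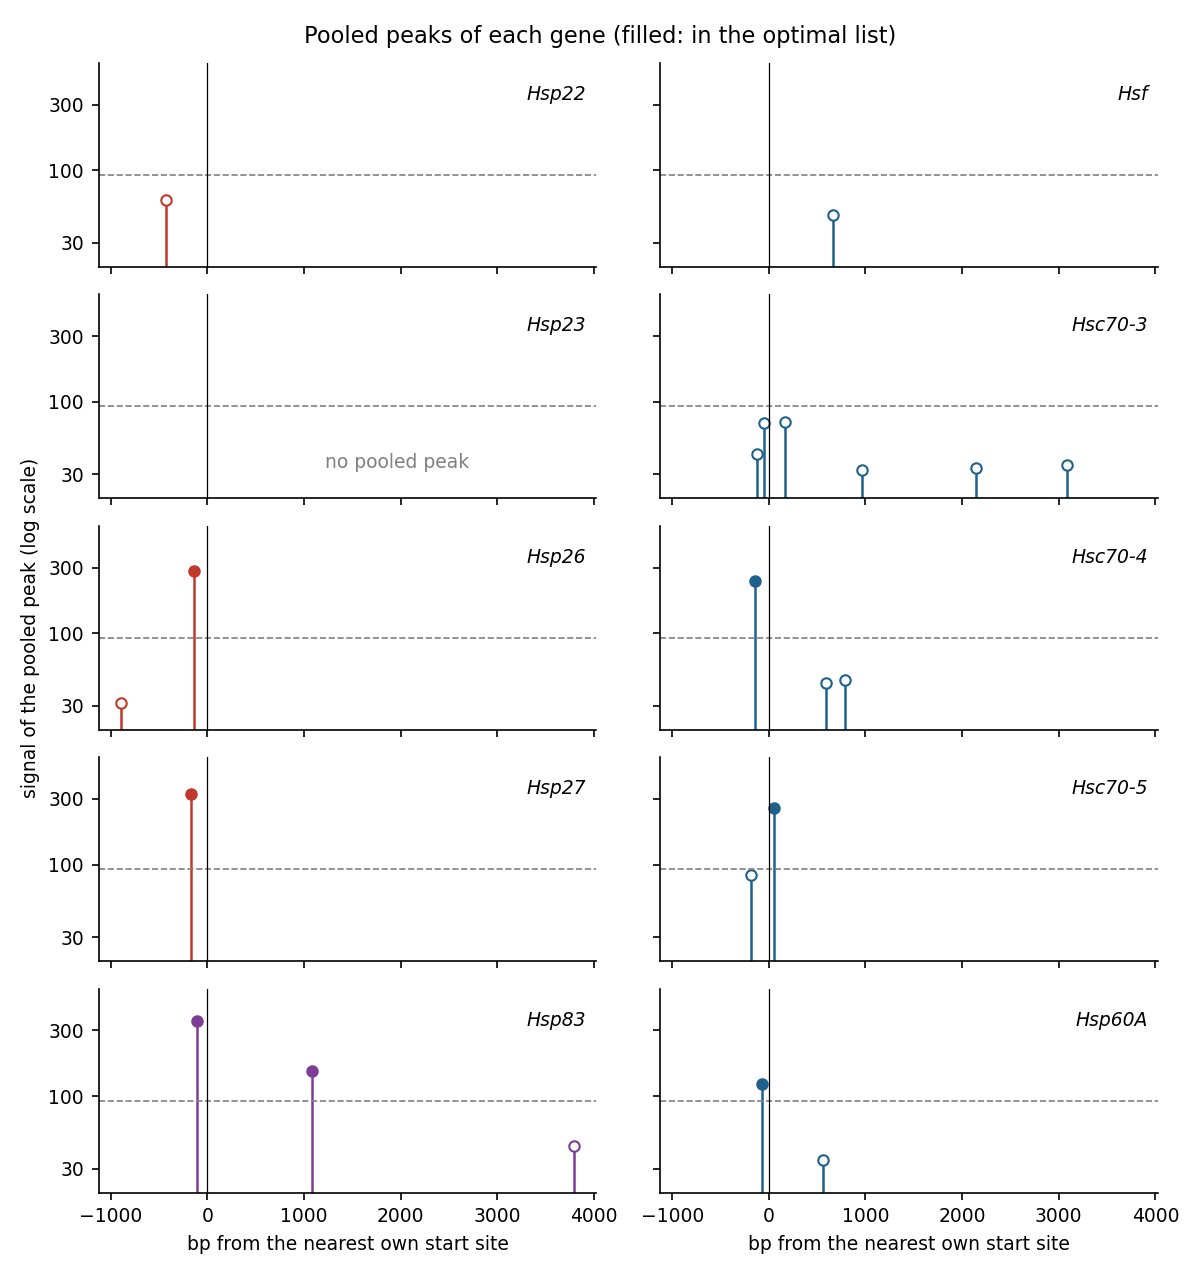
Pooled peaks at each gene, with distance of the summit from the nearest TSS of that gene in bp, in the direction of transcription, on the horizontal axis and the authors' signal on a log scale on the vertical axis. Filled points are optimal peaks and open points are other pooled peaks. The dashed line marks the lowest optimal signal, 92.74. Hsp26, Hsp27, Hsp83, Hsc70-4 and Hsp60A each have an optimal peak between -168 and -68 bp, Hsc70-5 has it at 58 bp, and Hsp23 has no peak.

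Among the stress-induced genes, Hsp27 had the strongest peak. Hsp27 encodes a small heat shock protein that also rises with ecdysone in development (chr3L:9384063-9385694, plus strand). Its peak (chr3L:9383799-9384019, summit 168 bp upstream of the TSS) had a pooled signal of 328.1 and pooled rank 577. In replicates 1, 2 and 3 the signal was 122.9, 119.6 and 88.74 and the rank 579, 482 and 694, a mean rank of 585.0 ± 106.1 (SD, n = 3). By rank, replicate 2 was the highest and replicate 3 the lowest. Summits in the replicates lay 7, 31 and 8 bp from the pooled summit. Hsp27 had no other pooled peak.

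Hsp26, a small heat shock protein gene that is also transcribed in the female germ line (chr3L:9376418-9377427, minus strand), had its optimal peak 142 bp upstream of the TSS (chr3L:9377359-9377778). The pooled signal was 284.5 and the pooled rank 747. The signal was 86.79, 124.0 and 72.87 and the rank 1149, 447 and 1006 in replicates 1, 2 and 3, a mean rank of 867.3 ± 371.0 (SD, n = 3). By rank, replicate 2 was the highest. Against Hsp27, Hsp26 ranked higher in replicate 2 and lower in replicates 1 and 3. A weaker pooled peak 891 bp upstream (signal 31.48) was found in replicate 2 at rank 25581 and in no other replicate, and it also fell in the window of Hsp67Ba.

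Hsp22 and Hsp23 had no optimal peak. Hsp22 encodes a small heat shock protein of mitochondria (chr3L:9372931-9374964, plus strand). Its single pooled peak (chr3L:9373361-9373780, 426 bp upstream of its nearest TSS) had a signal of 60.87 and pooled rank 7238. It had a signal of 19.53 at rank 10526 in replicate 1 and 13.62 at rank 15213 in replicate 3, and no peak of replicate 2 held its summit. The strongest replicate 2 peak elsewhere in the Hsp22 window had rank 13118. The pooled peak lies also in the window of CG4456, whose older name is Hsp67Bb and which overlaps Hsp22. Hsp23, a small heat shock protein gene of the cytoplasm (chr3L:9381882-9382765, plus strand), had no peak in the optimal list, the pooled list or any replicate.

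These 4 genes stand in 1 cluster of small heat shock genes. Counted from the 5′ end of Hsp22, pooled summits lay at 640 bp (signal 60.87), 4638 bp at Hsp26 (284.5, optimal), 5387 bp (31.48) and 10964 bp before Hsp27 (328.1, optimal). Hsp23, which starts at 8951 bp, thus lies between both optimal peaks with none of its own. Hsp67Bc and CG4461, other small heat shock genes of the cluster, had no pooled peak either. The windows of the 4 genes are 3067 bp for Hsp22, 2001 bp for Hsp23, 2053 bp for Hsp26 and 2632 bp for Hsp27.

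**Figure D2:**
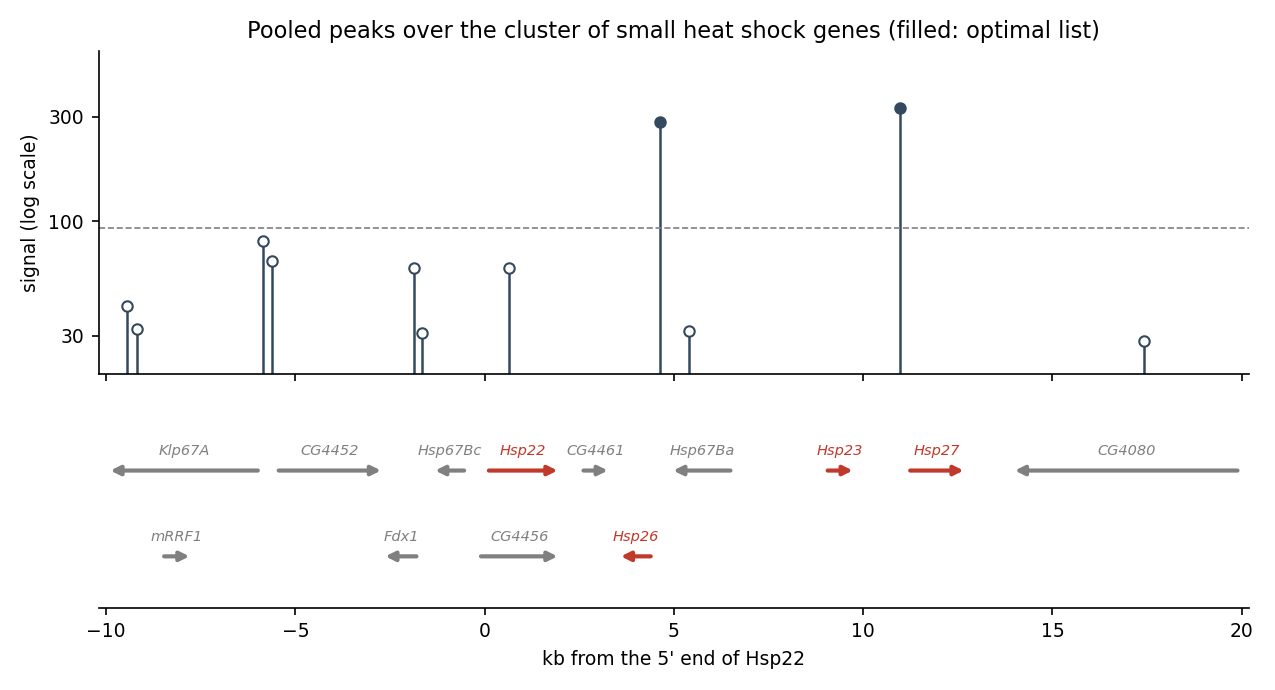
The small heat shock gene cluster, with position in kb from the 5′ end of Hsp22 on the horizontal axis and the authors' signal of each pooled peak on the vertical axis, on a log scale. Filled points are optimal peaks, open points other pooled peaks, and the dashed line the lowest optimal signal, 92.74. Genes are drawn to scale with their direction. The optimal peaks at 4638 bp (signal 284.5) and 10964 bp (signal 328.1) flank Hsp23, and all other pooled peaks drawn are at or below 81.56.

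The sequences below show what lay under the stress-induced summits and at the Hsp23 promoter, where no list had a peak. They were read from the release 6 genome of RefSeq and run 5′ to 3′ in the direction of the gene. For Hsp26 (chr3L:9377469-9377669, minus strand) and Hsp27 (chr3L:9383795-9383995, plus strand) they cover 100 bp each side of the summit, and for Hsp23 (chr3L:9381632-9381881, plus strand) the 250 bp before the TSS. Capitals mark heat shock elements of 2 repeats, GAANNTTC or TTCNNGAA.
Hsp26: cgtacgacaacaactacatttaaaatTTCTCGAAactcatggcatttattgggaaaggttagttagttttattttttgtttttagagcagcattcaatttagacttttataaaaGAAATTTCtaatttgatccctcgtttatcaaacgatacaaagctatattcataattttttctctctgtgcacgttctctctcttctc
Hsp27: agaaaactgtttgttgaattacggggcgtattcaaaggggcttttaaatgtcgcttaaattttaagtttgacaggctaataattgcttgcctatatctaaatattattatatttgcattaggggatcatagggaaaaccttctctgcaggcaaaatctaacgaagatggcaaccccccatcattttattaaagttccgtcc
Hsp23: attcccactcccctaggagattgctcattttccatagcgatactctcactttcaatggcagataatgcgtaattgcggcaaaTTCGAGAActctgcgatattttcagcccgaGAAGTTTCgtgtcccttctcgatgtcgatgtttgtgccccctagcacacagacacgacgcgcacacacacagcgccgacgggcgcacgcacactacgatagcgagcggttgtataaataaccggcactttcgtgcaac

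The Hsp26 summit had an element starting 14 bp downstream of it and another 74 bp upstream of it. The Hsp27 window held none of the 8 motifs searched, which were both forms of the element, the E-box CANNTG that bHLH proteins bind, its form CAGCTG, the GAGA factor sequence GAGAG, the DNA replication-related element TATCGATA, the Motif 1 core GGTCACAC and the TATA box TATAAA. The Hsp23 promoter held elements starting at -168 and -138 bp from the TSS, although no list had a peak there. Over promoters from 250 bp before to 50 bp after the TSS of the canonical transcript, 2 of 4 stress-induced genes (Hsp23 and Hsp26) and 1 of 5 constitutive genes (Hsc70-4) held an element, against 15.9% of 13944 promoters. That of the longer Hsp83 transcript held none. The other Hsp83 TSS, nearest to its stronger summit, was not scanned as a promoter. An element lies upstream of that TSS, in the stretch printed below. An element was thus present at the promoter of a gene with an optimal peak and at one with no peak. Sequence further upstream than these windows was not counted here, so no lack of an element at Hsp27 is shown. GAGAG was present at 3 of 4 stress-induced promoters (Hsp22, Hsp23 and Hsp26) and 0 of 5 constitutive ones, against 30.2% of all promoters. For every motif, the Hsp22 window was that of the longer transcript and also held the 5′ end of CG4456, at -209 bp. The other Hsp22 TSS, nearest to its pooled peak, was not scanned. TATAAA was present at 4 of 4 stress-induced and 3 of 5 constitutive promoters, against 45.3%, at any place in the window. It started at -27 bp from the TSS at Hsp23 and Hsc70-4 and at -28 bp at Hsp27. The other matches started at -249 bp (Hsp22), -137, -135 and 24 bp (Hsp26), -131 and -55 bp (Hsc70-5) and -117 bp (Hsp60A). E-boxes were present at 2 of 4 stress-induced promoters (Hsp22 and Hsp23) and 4 of 5 constitutive ones, against 77.4%. CAGCTG was present at Hsp22 alone among the 10, starting at -140, -24 and -1 bp from the TSS of the longer transcript, against 17.9% of all promoters.

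Hsp83, the gene of the cytosolic Hsp90 chaperone, had the strongest peak of the 10 genes and was the single gene among them with more than 1 optimal peak. The gene (chr3L:3192969-3197059, plus strand) has 2 annotated TSS. The stronger peak (chr3L:3192994-3193230) had its summit 105 bp upstream of the nearer TSS, in the 5′ UTR of the longer transcript, with a pooled signal of 351.0 and pooled rank 496. In replicates 1, 2 and 3 the signal was 151.8, 137.2 and 66.23 and the rank 393, 358 and 1170, a mean rank of 640.3 ± 459.0 (SD, n = 3). By rank, replicate 3 was the lowest, and without it the mean rank was 375.5. The summit also lay in the window of CG14965.

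The other optimal peak of Hsp83 lay in its intron (chr3L:3194089-3194508, 1083 bp downstream of the nearer TSS) with a pooled signal of 151.4. Its signal was 55.65, 52.96 and 47.59 and its rank 2326, 2201 and 1932 in replicates 1, 2 and 3, a mean rank of 2153 ± 201.3 (SD, n = 3). The promoter peak outranked the intron peak in each replicate. It was the single optimal summit of the 10 genes outside the 500 bp around a TSS. A pooled peak in the 3′ UTR (signal 43.65) was found in replicate 3 only, at rank 13554, and lay nearest to the TSS of CG14966, at 623 bp.

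The Hsp83 sequences are shown because both of its summits were optimal while their base composition and motifs differed. The promoter stretch is cut to 30 bases around the heat shock element and lies downstream of the summit, which it does not hold (chr3L:3193137-3193166, plus strand, from -79 to -50 bp relative to the nearer TSS), with the element in capitals. The intron window (chr3L:3194199-3194399, plus strand) covers 100 bp each side of the summit, with the E-box in capitals.
Hsp83 promoter: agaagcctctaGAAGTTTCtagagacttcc
Hsp83 intron: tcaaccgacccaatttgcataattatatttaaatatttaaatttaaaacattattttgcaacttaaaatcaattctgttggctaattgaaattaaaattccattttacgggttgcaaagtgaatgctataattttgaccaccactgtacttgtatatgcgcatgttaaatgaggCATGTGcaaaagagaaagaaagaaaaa

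The heat shock element started 37 bp downstream of the promoter summit, and the intron window held none. The E-box started 74 bp downstream of the intron summit, and the promoter window held none. GC content within 100 bp of the summit was 46.8% at the promoter and 28.4% in the intron. For all optimal summits the median was 36.8% and the quartiles 32.8% and 41.3%, so the promoter lay above the upper and the intron below the lower quartile. Among the other 5 optimal summits the GC content was 30.3% at Hsp26 and 36.3% at Hsp27, and 40.8% at Hsc70-4, 42.8% at Hsc70-5 and 43.3% at Hsp60A. By the nearest log10 ranks over the 3 replicates, the genes most like Hsp83 were CG14965, which shares the peak, and CG7806 and CG7810. These share a peak of signal 361.6, at ranks 468, 316 and 980.

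Among the constitutive genes, Hsc70-4, which encodes the main cytosolic Hsp70 cognate and drives the uncoating of clathrin-coated vesicles (chr3R:15242687-15246614, plus strand), had its optimal peak 142 bp upstream of the TSS (chr3R:15242458-15242645). The pooled signal was 238.1 and the pooled rank 1067. The signal was 108.0, 60.04 and 83.04 and the rank 759, 1791 and 781 in replicates 1, 2 and 3, a mean rank of 1110 ± 589.6 (SD, n = 3). By rank, replicate 2 was the lowest. The summit lay between the TSS of Hsc70-4 and that of tefu, the fly ATM kinase gene, which is transcribed in the other direction. Weaker pooled peaks lay in coding exons 588 and 788 bp downstream of a TSS, with signals of 43.53 and 45.73.

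Hsp60A, the mitochondrial chaperonin gene (chrX:11108482-11112308, plus strand), had the weakest of the optimal peaks at these genes. The peak (chrX:11108204-11108623, 68 bp upstream of the TSS) had a pooled signal of 123.0 and pooled rank 2916, below the median of the optimal list. In replicates 1, 2 and 3 the signal was 43.41, 39.14 and 39.22 and the rank 3380, 3573 and 2488, a mean rank of 3147 ± 578.8 (SD, n = 3). In each replicate it ranked lower than the strongest peak of every other gene with an optimal peak. A peak of signal 34.85 in its intron was found in replicate 1 only, at rank 12605.

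The Hsc70-4 and Hsp60A windows are shown for comparison with the stress-induced ones. The Hsc70-4 window (chr3R:15242445-15242645, plus strand) covers 100 bp each side of the summit, with the heat shock element in capitals. The Hsp60A window (chrX:11108314-11108481, plus strand) runs from 100 bp before the summit to the base before the TSS, with the core of Motif 1, a sequence of fly core promoters, in capitals.
Hsc70-4: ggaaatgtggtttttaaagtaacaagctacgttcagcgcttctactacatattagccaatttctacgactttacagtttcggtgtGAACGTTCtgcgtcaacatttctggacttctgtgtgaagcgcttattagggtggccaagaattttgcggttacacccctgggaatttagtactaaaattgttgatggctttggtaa
Hsp60A: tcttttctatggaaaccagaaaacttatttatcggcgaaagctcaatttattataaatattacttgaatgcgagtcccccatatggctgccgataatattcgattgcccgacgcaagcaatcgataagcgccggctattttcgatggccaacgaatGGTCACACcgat

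The element of Hsc70-4 started 15 bp upstream of the summit. The Hsp60A core sequence started 56 bp downstream of the summit, and an E-box 21 bp upstream of it. Over the 7 optimal summits, 3 had a heat shock element of 2 repeats within 100 bp (Hsp26, Hsp83 promoter and Hsc70-4), against 10.8% of all 4246 optimal summits. E-boxes were present at 2 of 7 (Hsp83 intron and Hsp60A), against 62.1%, and CAGCTG at 0 of 7, against 11.2%. GAGAG was present at 1 of 7 (Hsp26), against 21.5%, and TATAAA at 4 of 7, against 31.1%. The Motif 1 core was present at 1 of 7, against 3.67%, and TATCGATA at 0 of 7, against 5.79%. All motifs were searched on both strands, CAGCTG is 1 form of CANNTG, and a match is a description of the letters only.

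**Figure D3:**
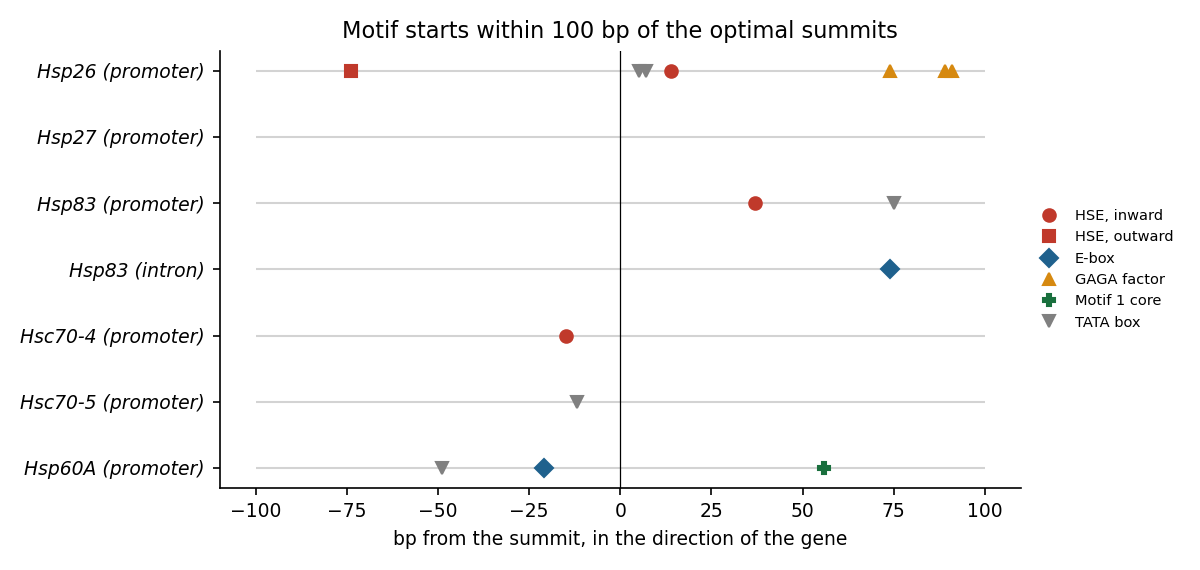
Motif matches within 100 bp of the 7 optimal summits, with bp from the summit in the direction of the gene on the horizontal axis and 1 row per summit. Each symbol is the start of a match, on either strand. Heat shock elements appear at Hsp26, at the Hsp83 promoter and at Hsc70-4, E-boxes at the Hsp83 intron and Hsp60A, and no match of any motif at Hsp27.

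Hsc70-3, which encodes BiP, the Hsp70 of the endoplasmic reticulum (chrX:11801696-11807117, minus strand), had the most pooled peaks, 6, and no optimal one. The strongest lay 162 bp downstream of a TSS (chrX:11805981-11806400) with a signal of 71.61, under the lowest optimal value of 92.74. In replicates 1, 2 and 3 it had a signal of 26.90, 37.01 and 22.78 and rank 6450, 3863 and 5148, so that it was a top peak in replicate 2 only. The mean rank was 5154 ± 1294 (SD, n = 3). A neighbouring summit 51 bp upstream of a TSS had a signal of 70.46. In replicates 1 and 3 the same peaks held both summits. The others had signals of 42.19 at another TSS, 34.71 in the 3′ UTR and 33.12 and 32.11 in coding exons. At 6422 bp the window of Hsc70-3 is the widest of the 10.

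Hsc70-5, the mitochondrial Hsp70 gene (chr2R:14252598-14256192, minus strand), had its optimal peak 58 bp downstream of a TSS (chr2R:14256008-14256196), with a pooled signal of 256.8 and pooled rank 929. In replicates 1, 2 and 3 the signal was 97.08, 51.10 and 105.4 and the rank 944, 2357 and 503, a mean rank of 1268 ± 968.5 (SD, n = 3). Replicate 2 was the lowest by rank, as at Hsc70-4, and without it the mean rank was 723.5. The peak lay in a head-to-head pair with CG8531, a J-domain gene, whose class of proteins drives the ATPase of Hsp70 partners. Of the 7 optimal summits, 2 (Hsc70-4 and Hsc70-5) lay in such pairs, defined by a distance of at most 500 bp to each of the TSS, against 22.9% of all optimal summits. A further pooled peak between both genes (chr2R:14256163-14256582) had a signal of 84.57, just under the lowest optimal value. It was a top peak in replicates 2 and 3, at ranks 3733 and 2416, while no peak of replicate 1 held its summit, and the nearest TSS was that of CG8531, at 120 bp.

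Hsf, the gene of the heat shock factor itself (chr2R:18130303-18134634, minus strand), had 1 pooled peak, in a coding exon 663 bp downstream of the TSS (chr2R:18133761-18134180). Its signal was 47.48 and its pooled rank 10078. In replicate 1 it had a signal of 27.93 at rank 6152 and in replicate 3 a signal of 11.26 at rank 23488, and no peak of replicate 2 held its summit. The strongest replicate 2 peak elsewhere in the Hsf window had rank 8979. Hsf thus had no top peak in any replicate.

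Set side by side, the strongest peaks of the bound genes had a median pooled signal of 306.3 for the 2 stress-induced genes and 238.1 for the 3 constitutive genes, against 179.8 over all 3920 genes with an optimal peak. The order between the classes was not the same in each replicate. In replicate 1, Hsp27 (rank 579) stood above Hsc70-4 (759) and Hsc70-5 (944), and Hsp26 (1149) below both. In replicate 2, Hsp26 (447) and Hsp27 (482) stood above Hsc70-4 (1791), Hsc70-5 (2357) and Hsp60A (3573). In replicate 3, Hsp27 (694) and Hsp26 (1006) stood below Hsc70-5 (503), with Hsc70-4 (781) between them. Among genes with an optimal peak, the classes therefore overlapped in replicates 1 and 3 and did not overlap in replicate 2. The ranges over replicates of Hsp83, Hsp27, Hsp26, Hsc70-4 and Hsc70-5 overlapped their neighbours' in order of pooled signal, and that of Hsp60A overlapped none of these.

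**Figure D4:**
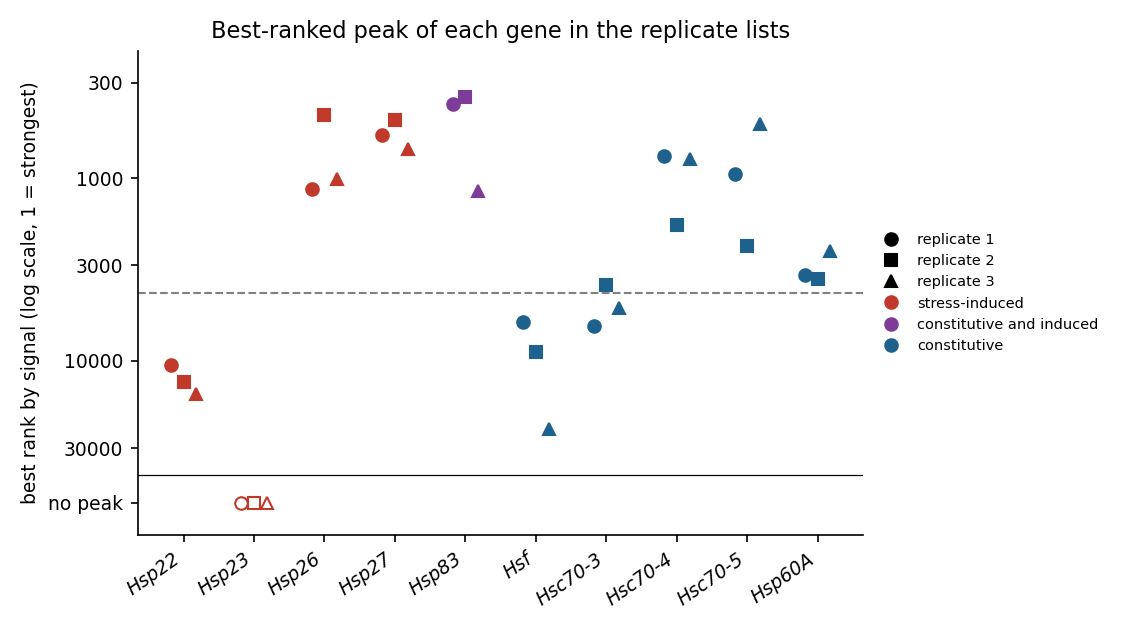
Rank of the strongest peak at each gene in the 3 replicate lists, on a log scale with rank 1 at the top, with a point per replicate and the stress-induced genes left of the constitutive ones. The dashed line is rank 4246, the limit of the top peaks. Hsp26, Hsp27, Hsp83, Hsc70-4, Hsc70-5 and Hsp60A lie above it in all replicates, Hsc70-3 crosses it in replicate 2 only, Hsp22 and Hsf lie below it, and Hsp23 has no peak (open symbols).

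Among all genes with an optimal peak, 82.8% had a lower strongest signal than Hsp83. The share was 80.3% for Hsp27 and 75.4% for Hsp26 among the stress-induced genes, and 70.4% for Hsc70-5, 66.4% for Hsc70-4 and 22.7% for Hsp60A among the constitutive ones. All 6 genes stayed below the highest peak of the series, which had a signal of 3344. The constitutive Hsp60A was below the median of bound genes and the other 5 above it.

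**Figure D5:**
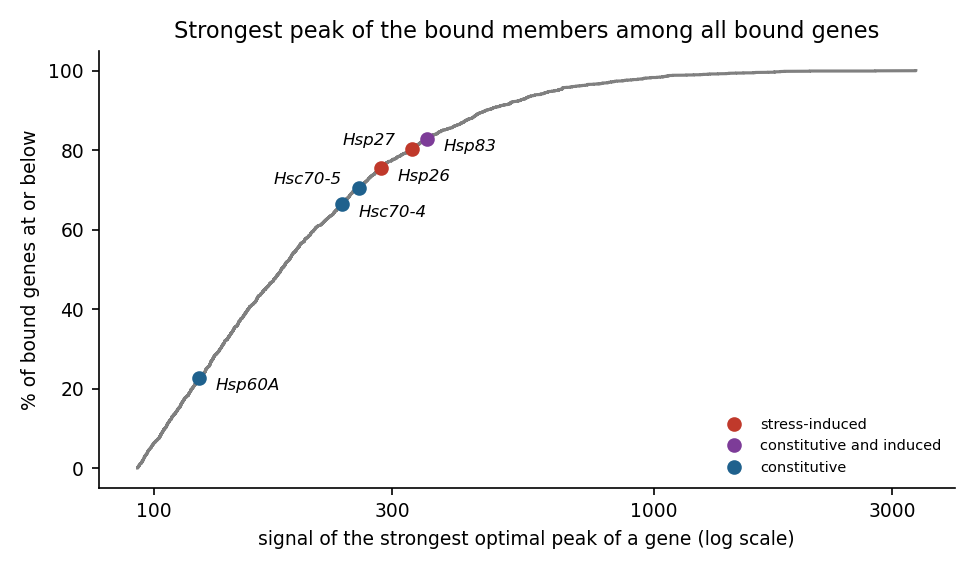
Signal of the strongest optimal peak of each gene, on a log scale, against the percent of bound genes at or below that signal. The grey line is all 3920 genes with an optimal peak and the points are the 6 heat shock and chaperone genes among them. Hsp27 (80.3% lower) and Hsp26 (75.4%) lie between Hsp83 (82.8%) and the constitutive genes (22.7% to 70.4%).

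Other chaperone genes were counted by family from a list of 60 annotated genes outside the 10, of which 22 (36.7%) had an optimal peak, against 28.1% of protein-coding genes, and 46 (76.7%) a pooled peak, against 62.7%. The inducible Hsp70 genes had 1 of 7, Hsp68 (signal 183.5), and the further small heat shock genes 0 of 7. The optimal summit at Hsp68 lay at -962 bp from its TSS and 15 bp from the TSS of SMC1, a cohesin gene. The other 6 inducible genes, the Hsp70A and Hsp70B copies, had no pooled peak. They are near-identical, and the treatment of reads that match several copies, not given in the sources used here, makes their lack of a peak uncertain.

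The J-domain genes, the cochaperones of Hsp70, had an optimal peak at 8 of 10. For several of these the strongest summit lay nearer to the TSS of another gene. These were Droj2 (mRpS21, at 143 bp), Csp (CG11523, 44 bp), CG8531 (Hsc70-5, 58 bp), DnaJ-60 (spag, 19 bp) and Sec63 (pst, 36 bp). The strongest were at mrj (543.5), P58IPK (277.6), CG8531 (256.8, the peak shared with Hsc70-5) and Tpr2 (206.2). Of the genes listed as the Hsp90 family and its cochaperones 4 of 8 had an optimal peak, with the strongest at stv (211.1). The product of stv is the BAG-domain protein Starvin. BAG-domain proteins act as nucleotide exchange factors of Hsp70, so stv stands in this family by the list used only. The strongest summit counted for Trap1 lay nearest to Bap170, at 81 bp. The subunits of the cytosolic chaperonin CCT, which folds actin and tubulin, had 3 of 8, with the strongest counted for CCT8 (288.5), at -501 bp from its TSS and 27 bp from the TSS of CG30349. The strongest summit counted for CCT3 lay nearest to CG10324, at 100 bp. Prefoldin, which hands nascent chains to that chaperonin, had 2 of 6. These were Pfdn6 (442.9, with the summit nearest to Su(z)12, at 85 bp) and mgr (165.2, nearest to Irbp, at 19 bp). Folding factors of the endoplasmic reticulum had 3 of 5, at prtp (300.6) and ERp60 (298.6), both relatives of protein disulphide isomerase, and at the calnexin gene Cnx99A (197.9). The Hsp60 and Hsp10 genes outside the 10 had 1 of 4, with none at Hsp60B, Hsp60C or Hsp60D. The 1 was CG11267, the fly Hsp10, which caps the Hsp60 chaperonin, with a signal of 194.6 and the summit 84 bp upstream. The genes listed as nucleotide exchange factors had 0 of 2, and the other Hsp70 and Hsp110 genes 0 of 3. The former do not cover every gene of that function, since stv, with optimal peaks, was counted with the Hsp90 family. The families hold 2 to 10 genes each, and no test was made between them.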

How the data were processed

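ChIP-seq peak lists of 3 replicates in 1 group were used as deposited, in dm6. The dm3 lists were not used. Per the records deposited beside the samples, every replicate list and the pooled list were called by the authors against a control, and the optimal list came from them by the irreproducible discovery rate (IDR). The peak caller, its version and the settings of the IDR were not given in the sources used here. The deposited signal of each peak ranked peaks within a list only. The authors' deposited −log10 q-values entered 1 alternative ranking only. No read depth is known, and no test was made.

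Summits were placed on the Ensembl release 115 annotation (BDGP6.54), with all transcript starts counted. For the replicate ranks of a pooled peak, a replicate peak counted when it held the pooled summit. For genes with a top peak in all replicates and for the best rank of a gene, each replicate's own summits were placed in the gene window. Motifs were searched in the release 6 genome. Code in Python 3.11.15 with pandas 2.3.3 was tested on simulated peaks. The members and lists were chosen with earlier results of these data known. The text names all 10 members with every peak of theirs, the genes of a wider chaperone list whose optimal peak exceeds the median signal, the protein-coding gene of a nearer start site, HLH54F, and the 3 genes nearest to the strongest member in replicate ranks. Genes of the wider list with weaker optimal peaks are named where the strongest summit lay nearer to another gene. Of 66 wider symbols 61 matched, 4 of them by RefSeq synonym, and 1 was a second name. Alternatives covered the window, the assignment of peaks, the lists, the ranking, the classes, left-out replicates and the motif window. Beyond those named, neighbours and overlapping genes were picked after their values were seen.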

Additional observations from a re-analysis of the deposited data

How the results depend on the processing

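Of the 10 genes, the same 6 had an optimal peak with windows of 500 bp, 1 kb or 2 kb, with start sites only, with any overlap, with the nearest gene only and with the 5′ end only. With the stronger part of the optimal list 5 remained, without Hsp60A. The class counts stayed at 2 of 4 stress-induced and 3 of 5 constitutive genes, apart from 2 constitutive genes with that list, and 3 stress-induced or 4 constitutive genes where Hsp83 was added to the class. The number with a top peak in all replicates was 6 without any single replicate and 6 when ranked by q-value. Ties in q-value were ordered by signal, so that ranking was not independent of the signal. The number also depended on the size of the lists. It was 4 with replicate lists cut to a smaller size, without Hsc70-5 and Hsp60A, and 9 with the whole lists. Leaving out 1 of 3 replicates cannot move a mean rank by as much as the SD of the 3 ranks. That the mean ranks of the strongest peaks moved by less therefore does not show stability. The mean rank of Hsp83 was 375.5 without replicate 3, against 640.3, and that of Hsc70-5 was 723.5 without replicate 2, against 1268. Heat shock elements of 2 repeats were present at 5 of 7 summits with 200 bp each side, against 3 with 100 bp, where 19.0% and 10.8% of all optimal summits held one. With 200 bp, E-boxes were present at 4 of 7 summits (85.9% of all), against 2, GAGAG at 3 (41.9%), against 1, CAGCTG at 1 (22.0%), against 0, and TATAAA at 6 (49.4%), against 4. The Motif 1 core stayed at 1 and TATCGATA at 0. A wider window also holds more letters. Elements of 3 repeats, an alternative chosen after seeing the data, were present at 0 of 7, against 0.353%, when every repeat had to match exactly. Arrays with an altered letter in a repeat were not counted, so this count does not show that longer arrays were absent. In the printed Hsp83 promoter stretch, further repeats flank the element on both sides at the same spacing. Those next to the element have an altered letter. No paired analysis was possible because there is 1 group. Unknown depth and the unknown scale of the signal limit all values to ranks within a list, and peaks below the lists' limits were not seen.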
